A study of Mus musculus with 2 samples.

Results

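A set of 33 genes of glycolysis and the hypoxia response was followed through the CD45+ cells of mouse tumours, cell class by cell class. The genes were listed by symbol, with earlier results of these data known, and all 33 were found among the 32285 features of each library. They comprise the glucose and lactate transporters, the enzymes of the upper and the lower part of glycolysis, 3 regulatory kinases, 3 genes of oxygen sensing and 8 hypoxia targets outside glycolysis. The study placed BALB/c mice 5 weeks old on a normal diet or on a diet without arginine and with equal total calories, 1 week before CT26 cells were injected under the skin. CT26 is a mouse colon carcinoma line that grows in BALB/c mice. Tumours were taken on day 20, and cells carrying CD45 (encoded by Ptprc) were pulled out with magnetic beads and sequenced from the 3′ end of each RNA molecule by 10x droplets. There is 1 library per diet: the library labelled Control, from the normal diet, and the library labelled Arg, read here as the arginine-deficient diet from the series' design text, since its own label names no diet. The number of mice behind each library is not given, so no difference between the diets could be tested, and each interval below is a 95% interval that covers counting error only.

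Glycolysis splits glucose into pyruvate. Transporters bring glucose in and lactate out, hexokinases trap the sugar, phosphofructokinases commit it, and the lower enzymes yield ATP and pyruvate, which lactate dehydrogenase turns into lactate. When oxygen is short the prolyl hydroxylases encoded by the Egln genes no longer mark the factor HIF-1α (Hif1a) for breakdown. HIF-1 then binds short DNA sites with the core ACGTG or GCGTG and raises transcription of most of these enzymes and of genes for mitochondrial clearance, collagen hydroxylation and pH control. Activated T cells, inflammatory macrophages and neutrophils are known to rely on glycolysis, and solid tumours hold poorly oxygenated regions.

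The starts of these genes carry the HIF core ACGTG more often than the starts of genes at large, while for GCGTG the excess was small among GC-rich windows. RefSeq promoter windows on GRCm38.p6, from 250 bases before to 50 bases after the transcription start, were available for 30 of the 33 genes, in 43 windows because some genes have several starts. Slc2a3, Bnip3l and Ndrg1 had no entry, and Ero1l was matched by its synonym Ero1a. Both strands were searched for ACGTG and for GCGTG, so that CACGT and CACGC on the printed strand count as matches and CACGTG, which reads the same on both strands, holds ACGTG on each. ACGTG was present in 26 of the 43 windows (60.5%), beside 19.6% of all 32851 windows. GCGTG was present in 24 (55.8%), beside 32.4%, and at least 1 of the cores in 36 (83.7%), beside 43.8%. Counted once per gene, ACGTG was present for 23 of 30 (76.7%), beside 21.8% of 27025 genes, and GCGTG for 19 (63.3%), beside 35.2%. The windows of the set had a median GC content of 63.3%, against 52.7% for all windows. Among windows with at least 60% GC, ACGTG was present in 19 of 25 (76%) against 26.5% of 9690, whereas GCGTG was present in 16 (64%) against 59.2%. The windows of Gpi1 and Tpi1 held neither core. A match describes the letters in the window and does not show that the factor binds there.

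The 250 bases before the start of 4 genes are printed 5′ to 3′ on the gene's own strand, because these genes carry the main results below. Ldha (lactate dehydrogenase A) was highest in the Tm4sf1 Rhox5 cluster in both libraries, Bnip3 (a mitophagy receptor) and Ero1l (an oxidase of the endoplasmic reticulum that forms disulfide bonds) were the members farthest apart between the libraries there, and Hk2 (hexokinase 2) was higher in the Arg library in nearly every class. Capitals mark the cores ACGTG and GCGTG and their reverse complements CACGT and CACGC.
Ldha: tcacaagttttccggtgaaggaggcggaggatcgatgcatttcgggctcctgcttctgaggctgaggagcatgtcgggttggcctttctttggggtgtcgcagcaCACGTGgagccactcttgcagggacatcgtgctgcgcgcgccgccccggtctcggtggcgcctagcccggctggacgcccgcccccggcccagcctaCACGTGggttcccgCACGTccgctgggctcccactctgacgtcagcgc
Bnip3: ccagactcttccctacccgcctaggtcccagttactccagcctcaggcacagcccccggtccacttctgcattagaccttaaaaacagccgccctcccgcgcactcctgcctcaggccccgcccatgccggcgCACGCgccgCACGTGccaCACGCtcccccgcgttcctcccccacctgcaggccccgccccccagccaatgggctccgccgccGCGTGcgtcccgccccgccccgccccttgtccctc
Ero1l: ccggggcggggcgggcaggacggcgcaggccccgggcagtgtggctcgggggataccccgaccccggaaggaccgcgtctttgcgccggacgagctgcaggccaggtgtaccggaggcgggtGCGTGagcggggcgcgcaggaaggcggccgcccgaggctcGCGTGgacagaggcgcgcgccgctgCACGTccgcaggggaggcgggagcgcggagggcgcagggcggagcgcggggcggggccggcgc
Hk2: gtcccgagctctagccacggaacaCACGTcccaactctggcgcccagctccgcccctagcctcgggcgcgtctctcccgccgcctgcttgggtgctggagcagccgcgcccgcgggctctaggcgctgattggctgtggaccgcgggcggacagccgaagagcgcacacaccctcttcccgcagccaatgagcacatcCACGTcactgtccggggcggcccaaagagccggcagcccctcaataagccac
These stretches lie at chr7:46845554-46845803 (plus strand, Ldha), chr7:138909507-138909756 (minus strand, Bnip3), chr14:45318573-45318822 (minus strand, Ero1l) and chr6:82774455-82774704 (minus strand, Hk2) of GRCm38. Ldha has 3 marked stretches, Bnip3 has 4, Ero1l has 3 and Hk2 has 2. The marked stretches of Ldha begin 145, 48 and 34 bases before the start, and those of Hk2 226 and 52 bases before it. In the GENCODE annotation of the same build the genes span chr7:46841475-46855627 (Ldha), chr7:138890836-138909519 (Bnip3), chr14:45283087-45318771 (Ero1l) and chr6:82725025-82774454 (Hk2). The Ldha stretch thus lies inside the annotated gene, the Bnip3 and Ero1l stretches overlap its first bases, and the Hk2 stretch ends next to it.

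The libraries held 155927693 UMIs (unique molecular identifiers, 1 per captured RNA molecule) in 14540 barcodes for Arg and 191505551 in 14343 for Control, and 44 barcodes occurred in both. Filters left 12991 cells in Arg and 12800 in Control, at a median depth of 8294 and 10021 UMIs. Cells were clustered without these genes or the companion lists described below, and clusters were named by marker genes: each name stands for cells like that type. Of 16 classes with at least 50 cells in a library, 12 had at least 100 cells in both and were compared between libraries. Unnamed cells numbered 942 in Arg and 989 in Control. The cells of 1 cluster (469 in Arg, 1434 in Control) carried no cell type name and are called by their leading genes, Tm4sf1 and Rhox5. Their Ptprc level, 37.6 CPM in Arg (UMIs of a gene per 1000000 UMIs of the class) and 18.9 in Control, was far below the 1242 and 1164 CPM of CD8 T cells although the sort was for CD45. The keratin genes Krt20 and Krt18 had a UMI in 49.6% and 21.6% of these cells, while the epithelial genes Krt8 and Epcam had one in 1.37% and 0.160%. Their median depth was 37793 UMIs in Arg and 34081 in Control, and the neutrophils were the shallowest compared class, at 2212 and 2175.

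UMIs were summed over the cells of each class and library and are given as CPM. Each molecule is counted at its 3′ end, and levels were not divided by gene length. The intron setting is not given, and whether gene length affects a level was not tested. The 33 genes together were highest in the macrophages marked by Arg1 and Mmp12, at 14972 CPM in Arg and 16296 in Control, and lowest among compared classes in plasmacytoid dendritic cells (pDC), at 2873 and 3150, a range of 5.21-fold and 5.17-fold. The Tm4sf1 Rhox5 cluster came second in both libraries, at 13878 and 10406 CPM. Type 2 conventional dendritic cells (cDC2) had 10548 CPM in Arg and 7882 in Control, monocytes 9827 and 8677, neutrophils 8169 and 9049, and the other macrophages 7359 and 7419. The lymphoid classes lay lower and closer together: regulatory T cells had 6367 and 6508 CPM, CD8 T cells 5803 and 6125, CD4 T cells 5071 and 5086, and NK cells 4575 and 5169. Type 1 conventional dendritic cells (cDC1) had 5055 and 4491 CPM. Mast cells and basophils had 5111 and 5045 CPM. The order of monocytes, cDC2 and neutrophils differed between the libraries. Counting intervals overlapped among CD4 T cells, mast cells and basophils and cDC1 in Arg, and among CD4 T cells, mast cells and basophils and NK cells in Control. Of the classes with levels only, mature dendritic cells had 4463 and 4141 CPM, plasma cells 2746 in Arg (overlapping pDC) and fibroblasts 7322 in Control (overlapping macrophages).

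**Figure D1:**
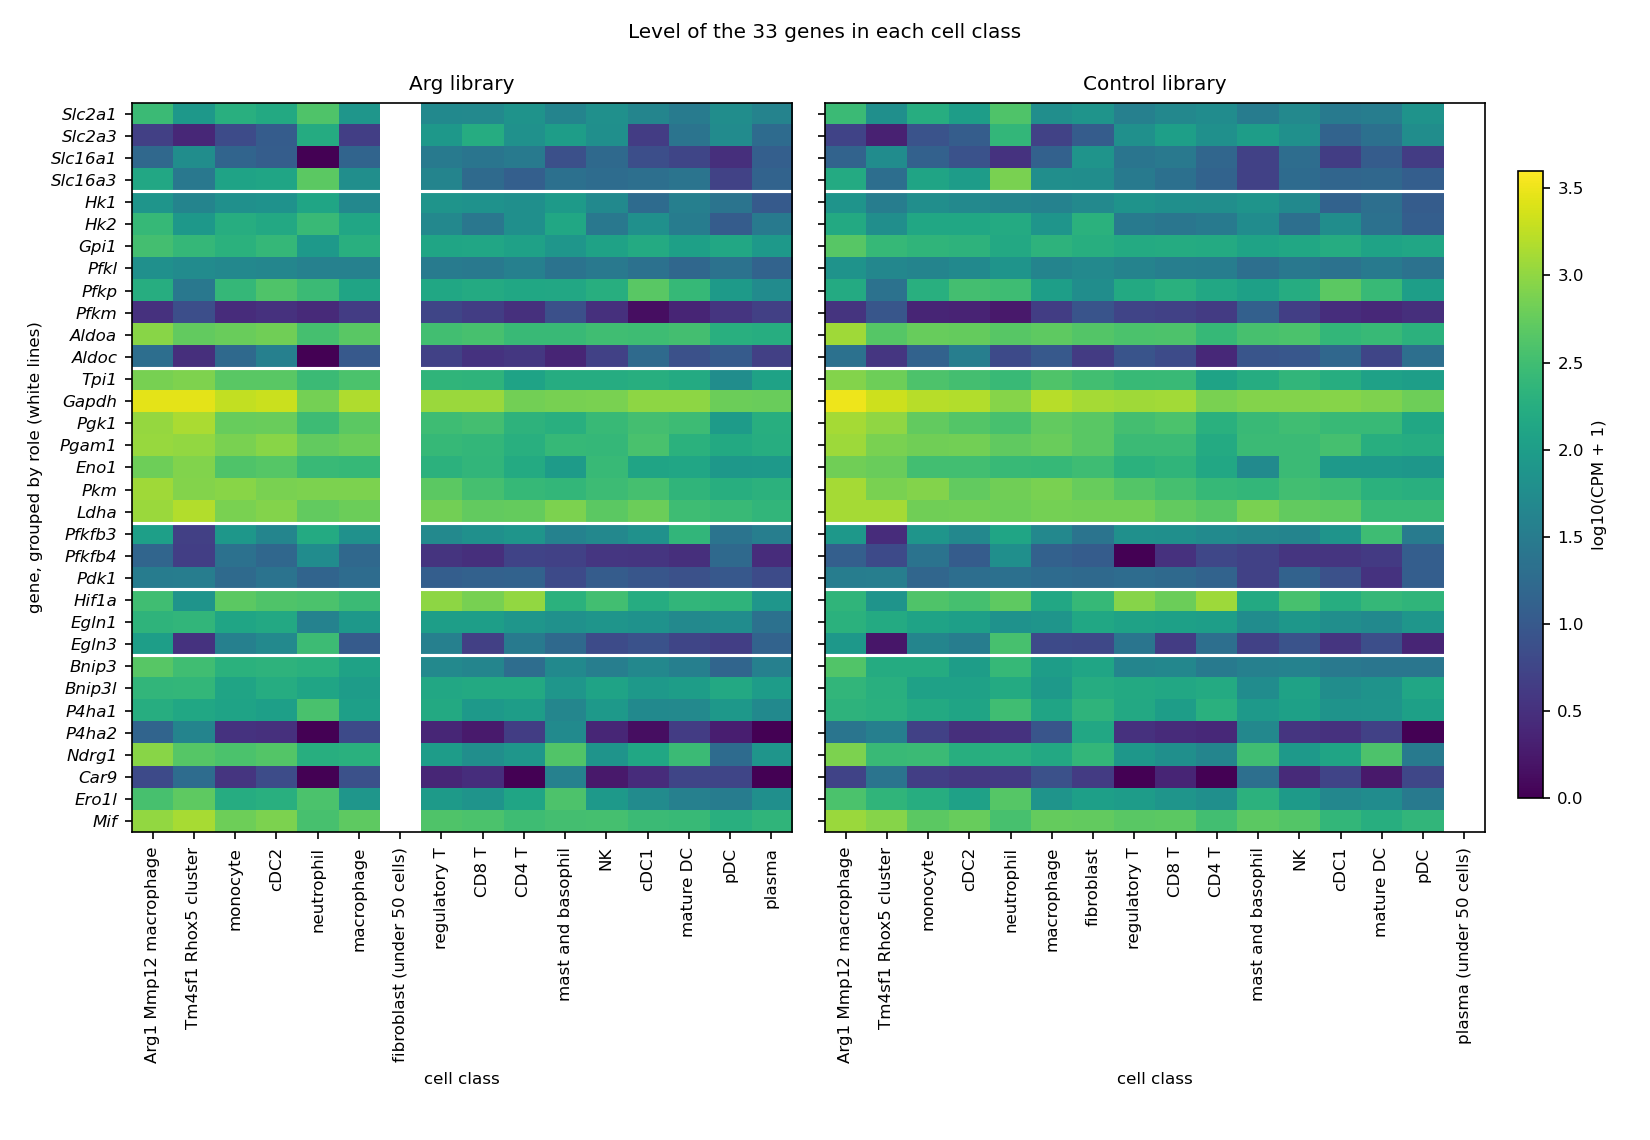
Level of each of the 33 genes (rows, grouped by role) in each cell class (columns), as log10(CPM + 1), with the Arg library on the left and the Control library on the right. White columns are classes with under 50 cells in that library. The lower glycolysis rows are brightest in the Arg1 Mmp12 macrophages and the Tm4sf1 Rhox5 cluster, while Slc2a3, Pfkp, Pfkfb3 and Hif1a follow other patterns.

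The classes differed in which transporter genes they held. Slc2a1 (GLUT1, the widespread glucose transporter) was highest in neutrophils, at 410 CPM in Arg and 399 in Control, followed by Arg1 Mmp12 macrophages at 281 and 286, and lowest in mature dendritic cells in Arg (30.3) and in cDC1 in Control (29.1). Slc2a3 (GLUT3, a transporter of high affinity found in neurons and lymphocytes) was at 167 and 107 CPM in CD8 T cells and at 162 and 243 in neutrophils. It was at only 3.63 and 4.16 CPM in macrophages and at 1.52 and 1.17 in the Tm4sf1 Rhox5 cluster. After each cell was thinned to 2000 UMIs, 26.3% of 1067 CD8 T cells in Arg and 18.3% of 1603 in Control held a Slc2a3 UMI, against 0.930% and 0.640% of Arg1 Mmp12 macrophages. Without thinning these shares were 60.3% and 50.9% in CD8 T cells and 3.27% and 4.11% in the macrophages, at median depths of 7546 and 8170 against 9095 and 9797 UMIs. The share in CD8 T cells was above that in these macrophages in both libraries, with and without thinning. The source of the few UMIs in the macrophages was not tested.

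The lactate exporter Slc16a3 (MCT4) was also a neutrophil gene, at 488 CPM in Arg and 740 in Control, followed by Arg1 Mmp12 macrophages at 143 and 156. It was lowest in pDC in Arg (4.11) and in mast cells and basophils in Control (3.97). Slc16a1 (MCT1, which carries lactate both ways) had another distribution. Its highest levels were 57.1 CPM in the Tm4sf1 Rhox5 cluster in Arg and 71.3 in fibroblasts in Control, where the Tm4sf1 Rhox5 cluster had 54.9. Neutrophils were its lowest class in both libraries, with no UMI in Arg and 2.36 CPM in Control.

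**Figure D2:**
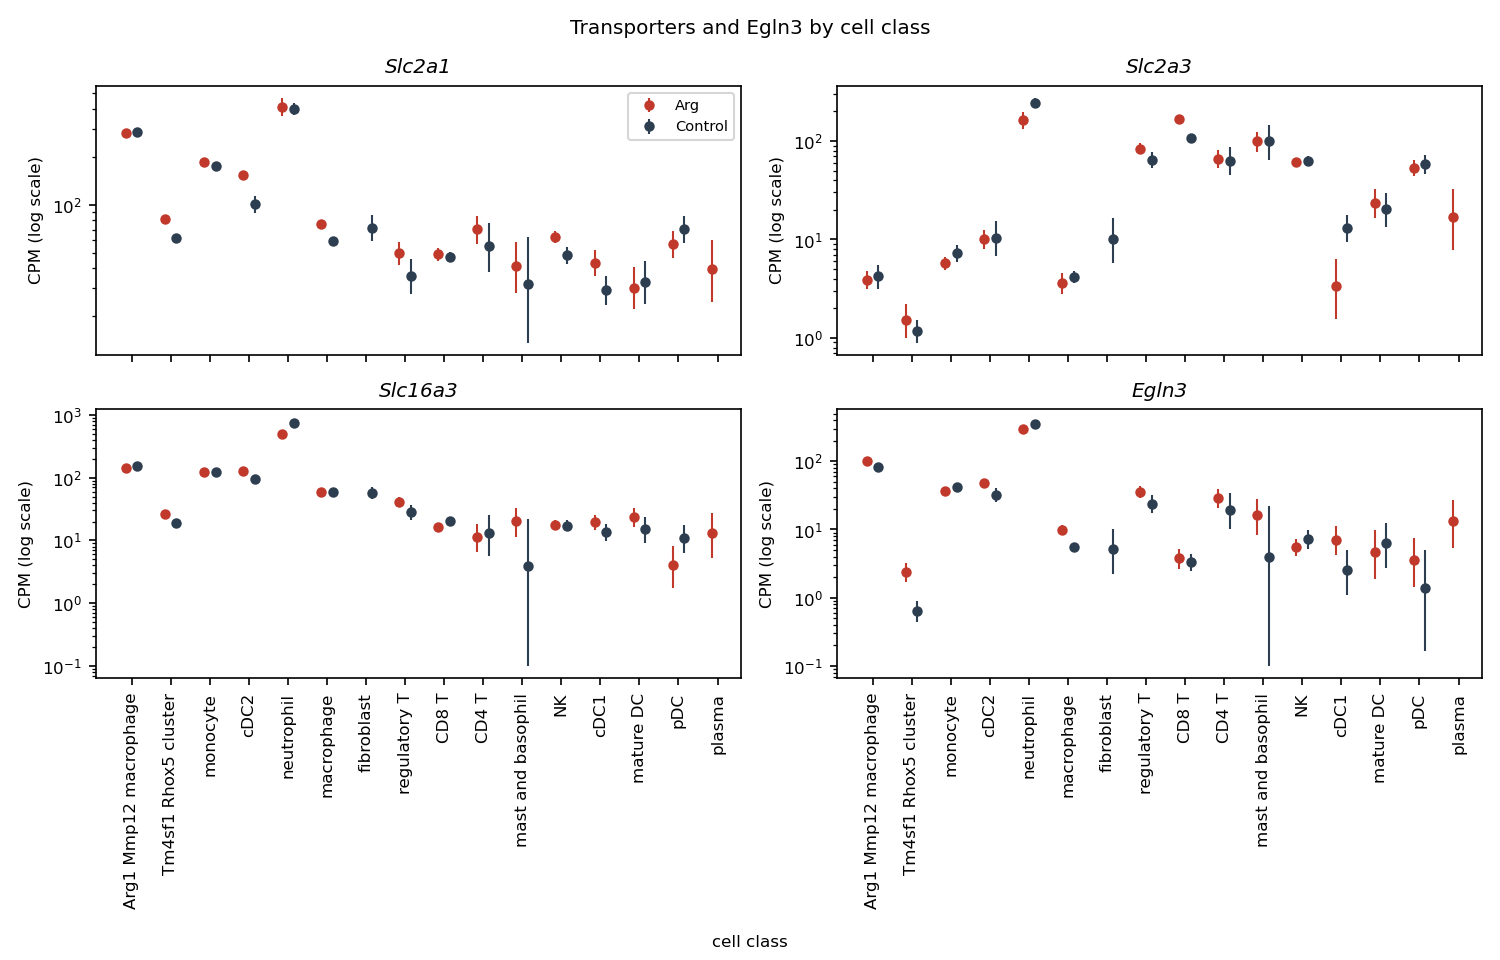
Levels of Slc2a1, Slc2a3, Slc16a3 and the oxygen sensor gene Egln3 in CPM on a log axis, by cell class. Red points are the Arg library, dark points the Control library, and bars are 95% Poisson intervals of the summed UMIs. Slc2a1, Slc16a3 and Egln3 are highest in neutrophils, and Slc2a3 is high in neutrophils and in T cells but at most 7.23 CPM in the monocyte and macrophage classes.

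The enzymes of upper glycolysis split into broadly shared and class-restricted genes. Aldoa (aldolase A) and Gpi1 (glucose-6-phosphate isomerase) were highest in Arg1 Mmp12 macrophages, at 912 and 1219 CPM and at 333 and 461 CPM. Aldoa was lowest in plasma cells in Arg (173) and in pDC in Control (206), and Gpi1 in mast cells and basophils in Arg (76.2) and in mature dendritic cells in Control (119.6). Pfkp, the platelet-type phosphofructokinase, was highest in cDC1, at 478 and 484 CPM, and lowest in the Tm4sf1 Rhox5 cluster, at 26.2 and 21.6. The liver-type gene Pfkl stayed between 13.2 and 73.2 CPM in every class, and the muscle-type gene Pfkm at or under 11.9, so that Pfkm never passed the 10 CPM mean used for comparisons. Aldoc (aldolase C) was highest in cDC2, at 36.4 and 33.3 CPM, and lowest in neutrophils in Arg (no UMI) and in CD4 T cells in Control (1.62). Hk1 (hexokinase 1) was highest in neutrophils in Arg (128) and in Arg1 Mmp12 macrophages in Control (71.9), and lowest in plasma cells (9.43) and pDC (10.3). Hk2 was highest in neutrophils in Arg (277) and in fibroblasts in Control (196), and lowest in pDC, at 10.3 and 10.9.

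The 7 enzymes of lower glycolysis together had 8738 CPM in Arg and 9856 in Control in Arg1 Mmp12 macrophages, and 9322 and 7169 in the Tm4sf1 Rhox5 cluster. They had 1457 and 1576 CPM in pDC, the lowest compared class. Gapdh (glyceraldehyde-3-phosphate dehydrogenase) had 2847 CPM in Arg and 3266 in Control in Arg1 Mmp12 macrophages and 2870.5 and 2100 in the Tm4sf1 Rhox5 cluster, so that the leading class differed between the libraries. Its minimum was at 602 in plasma cells in Arg and 637 in pDC in Control. Ldha was highest in the Tm4sf1 Rhox5 cluster in both libraries, at 1552 and 1322 CPM, and lowest in plasma cells in Arg (236) and pDC in Control (265). Pkm (pyruvate kinase) and Pgam1 (phosphoglycerate mutase) were highest in Arg1 Mmp12 macrophages, at 1214 and 1286 and at 1099 and 1196 CPM. Pkm was lowest in pDC, at 179 and 186 CPM, and Pgam1 in pDC in Arg (155) and in CD4 T cells in Control (157). Tpi1 (triose phosphate isomerase), Pgk1 (phosphoglycerate kinase) and Eno1 (enolase) likewise had a different leading class in each library: each was highest in the Tm4sf1 Rhox5 cluster in Arg (812, 1382 and 815 CPM) and in Arg1 Mmp12 macrophages in Control (851, 1307 and 658 CPM). The lowest levels of Tpi1 (57.1 and 102 CPM) and Pgk1 (94.1 and 140.2 CPM) were in pDC. Eno1 was lowest in pDC in Arg (81.8) and in mast cells and basophils in Control (51.6).

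The regulatory kinases had a separate order. Pfkfb3, whose product makes the activator of phosphofructokinase, was highest in mature dendritic cells, at 234 CPM in Arg and 307 in Control, and nearly lacking in the Tm4sf1 Rhox5 cluster, at 3.77 and 1.83. Its relative Pfkfb4 was highest in neutrophils, at 55.7 and 61.4 CPM, and lowest in plasma cells in Arg (1.89) and regulatory T cells in Control (no UMI). Pdk1, which shuts pyruvate out of mitochondrial oxidation, was low throughout, with its maximum at 32.2 and 33.8 CPM in the Tm4sf1 Rhox5 cluster and its minimum at 5.35 in mast cells and basophils in Arg and 2.36 in mature dendritic cells in Control.

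Oxygen sensing genes did not follow the enzymes. Hif1a RNA was highest in CD4 T cells, at 1039 CPM in Arg and 1180 in Control, then in regulatory T cells at 976 and 888 and in CD8 T cells at 737 and 620. It was lowest in the Tm4sf1 Rhox5 cluster, at 71.6 and 71.3 CPM, although that cluster ranked second for the whole set. HIF-1α is known to be controlled mainly as a protein, which these data do not measure. Egln1 (PHD2, the main oxygen sensor) was highest in the Tm4sf1 Rhox5 cluster in Arg (234) and in Arg1 Mmp12 macrophages in Control (197), and lowest in plasma cells (20.7) and mature dendritic cells (50.4). Egln3 (PHD3, itself induced by hypoxia) was highest in neutrophils, at 296 and 350 CPM, then in Arg1 Mmp12 macrophages at 102 and 82.8, and lowest in the Tm4sf1 Rhox5 cluster at 2.37 and 0.634. At 2000 UMIs per cell, 33.1% of 139 neutrophils in Arg and 38.5% of 262 in Control held an Egln3 UMI, against 0.937% and 0.561% of CD8 T cells. The unthinned shares were 33% and 37.2% of neutrophils, whose median depth was 2212 and 2175 UMIs, and 2.79% and 2.99% of CD8 T cells.

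Among hypoxia targets outside glycolysis, Ndrg1 (a stress-response gene of differentiating cells) and Bnip3 were highest in Arg1 Mmp12 macrophages, Ndrg1 at 897 CPM in Arg and 784 in Control and Bnip3 at 463 and 418. Both were lowest in pDC, Ndrg1 at 17.0 and 29.4 and Bnip3 at 13.9 and 24.6. Mif (macrophage migration inhibitory factor, a cytokine) was highest in the Tm4sf1 Rhox5 cluster in Arg (1352) and in Arg1 Mmp12 macrophages in Control (1142), and lowest in pDC in Arg (189) and in mature dendritic cells in Control (180.2). Ero1l was highest in the Tm4sf1 Rhox5 cluster in Arg (500.4) and in neutrophils in Control (447), and lowest in pDC, at 31.9 and 28.7. Bnip3l, a relative of Bnip3, varied least of these, from 76.2 to 237 CPM in Arg and from 55.5 to 233 in Control. Its extremes were the mast cells and basophils and, at the top, the Tm4sf1 Rhox5 cluster in Arg and Arg1 Mmp12 macrophages in Control. P4ha1 (a collagen prolyl hydroxylase) was highest in neutrophils, at 363 and 316 CPM, and lowest in mast cells and basophils in Arg (44.1) and in cDC1 in Control (69.5). Its relative P4ha2 reached 145 CPM in fibroblasts in Control and 52.1 in mast cells and basophils in Arg, with no UMI in neutrophils and plasma cells in Arg or in pDC in Control. Car9 (carbonic anhydrase 9, which helps to set the pH at the cell surface) was rare, with maxima of 37.4 in mast cells and basophils in Arg and 23.4 in the Tm4sf1 Rhox5 cluster in Control and no UMI in CD4 T cells of either library, in neutrophils and plasma cells in Arg or in regulatory T cells in Control. Where a member had no UMI, the upper 95% bound of its level was 6.23 CPM in neutrophils and 6.96 in plasma cells in Arg, 2.59 and 5.99 in CD4 T cells of Arg and Control, and 2.52 in pDC and 2.04 in regulatory T cells in Control.

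As a description, each gene was set against the mean standardised profile of the 26 members with at least 20 CPM on average, over the 30 sums of class and library. The sums share libraries and differ in depth, so the correlations carry no test. Pkm (Pearson r = 0.94), Aldoa (0.92) and Bnip3 (0.92) followed the profile most closely. Slc2a3 (-0.31), Pfkfb3 (0.04), Pfkp (0.09) and Hif1a (0.16) had the lowest values among those 26. Of 6452 genes ranked outside the set, the 10 most alike were Ankrd37 (0.862), Rbms1 (0.862), Soat1 (0.850), Fam162a (0.824), Hilpda (0.807), Pgd (0.797), Zfp703 (0.787), Zfp622 (0.783), Zfand2a (0.780) and Atp6v1e1 (0.772). Ankrd37, Fam162a and Hilpda are in the companion list of other hypoxia targets and Pgd in that of the pentose phosphate pathway.

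Within the monocytes and macrophages, clustered again on their own and again without these genes, the summed level spanned 6.16-fold in Arg and 4.90-fold in Control. It was highest in cluster M9, marked by Gpnmb, Pgf and Mmp12, at 19124 CPM in Arg and 19279 in Control. Cluster M8 (Hmox1, Mmp13) followed at 16194 and 15789, then M2 (Thbs1 and Vcan, monocyte-like) at 13977 and 13669 and M1 (Mmp9, Pf4, Arg1) at 13414 and 13587. In these 4 clusters the libraries were within 1.03-fold of each other. The lowest were M11, a nonclassical monocyte-like cluster, at 3666 and 4835 CPM, and M4 (Cd209g, Cd209f, Retnla), at 3107 and 3933. Gapdh spanned 426 CPM (M4) to 3694 (M9) in Arg, and Ndrg1 78.8 (M11) to 1541 (M9). The T and NK cell clusters covered a narrower range, 2.65-fold in Arg and 3.0-fold in Control. Its upper ends were clusters that took no cell type name: T9 (Gzmd, Gzme, Il2ra; 196 cells in Arg and 49 in Control) at 7631 CPM in Arg, where the Arg1 Mmp12 macrophage markers averaged 2.85 on the log2 scale against the other T and NK clusters, and T11 (Wfdc21, Cxcl13, Fn1; 128 cells in Control and 1 in Arg) at 8355 CPM in Control. Among the named clusters, T7 (regulatory T cells) had 6500 CPM in Arg and 6252 in Control. T13 (cycling regulatory T cells, under 50 cells in Arg) had 6815 in Control. Of the CD8 T cell clusters, T5 (cycling) had 6495 and 6079 CPM, T2 (with Nrn1 and Ifng) 6085 and 5850, and T1 (with Pdcd1 and Tox) 5369 and 6330. The lowest cluster, T10 (Lef1, Tcf7 and Klra5), had 2884 and 2789.

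**Figure D3:**
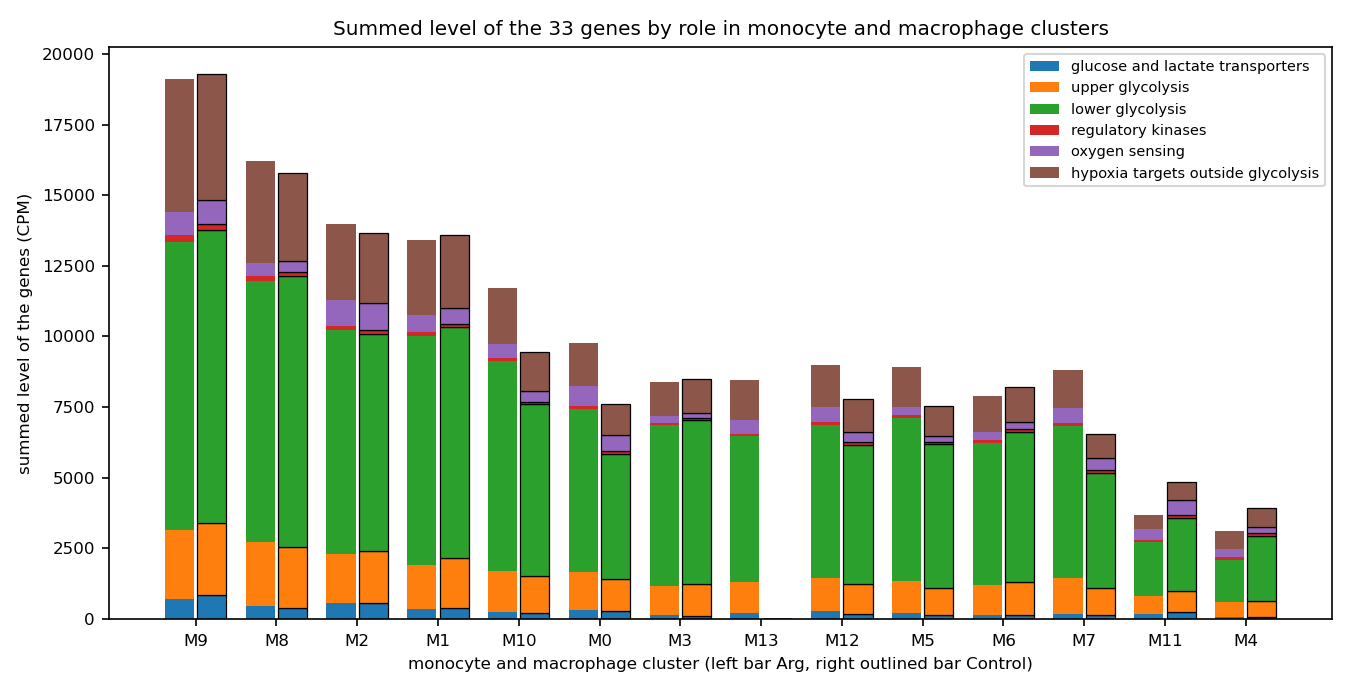
Summed level of the 33 genes in CPM, stacked by role, in each monocyte and macrophage cluster, with the Arg library as the left bar and the Control library as the outlined right bar. M9 stands at 19124 and 19279 CPM and M4 at 3107 and 3933; M13 has under 50 cells in Control and no second bar.

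Between the libraries, members were compared in each of the 12 classes as the log2 ratio of CPM + 5, Arg over Control, among those with a mean of at least 10 CPM. The added 5 CPM pulls the ratios of low genes towards 0. Members at least 1.5-fold apart on that scale are called higher or lower, and the share of all genes called is given beside each count. Across the 12 classes 21 of 331 pairs of member and class (6.34%) were called higher in Arg, beside 3.66% of all pairs of gene and class, and 10 (3.02%) lower, beside 3.73%. Ratios given as folds are of CPM alone.

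**Figure D4:**
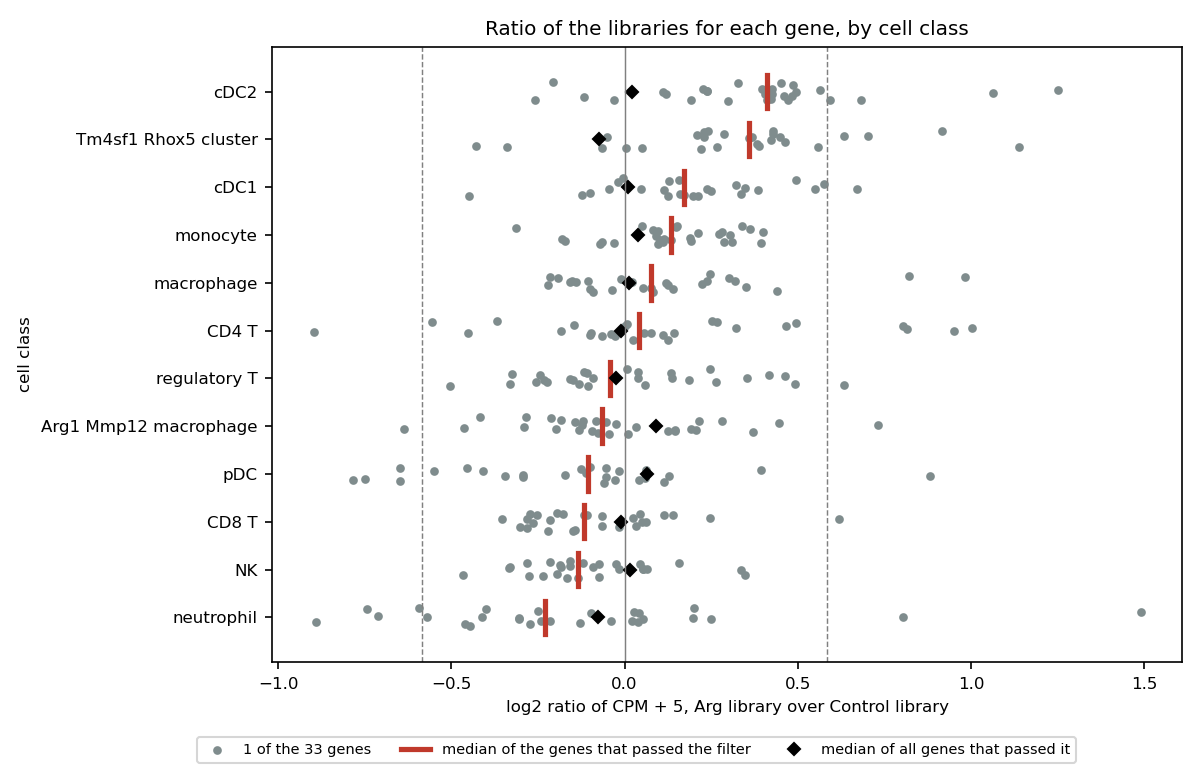
Log2 ratio of CPM + 5, Arg over Control, for each of the 33 genes that passed the filter (grey points) in the 12 compared classes, with the median of these genes (red bar) and of all genes that passed (black diamond); dashed lines mark 1.5-fold. The red bar lies farthest to the right in cDC2 (0.41) and the Tm4sf1 Rhox5 cluster (0.36) and farthest to the left in neutrophils (-0.23).

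The Tm4sf1 Rhox5 cluster had more of these RNAs in the Arg library. Of 27 members that passed the filter 23 were higher; the median log2 ratio was 0.36, against -0.08 for all genes. Of these, 4 (14.8%) were called higher where 1.45% of all genes were; none was called lower, beside 1.94% of all genes. Ero1l had 225 CPM in Control and 500.4 in Arg, 2.23-fold (interval 2.17 to 2.29). Bnip3 had 165 and 316, 1.92-fold (1.85 to 1.98), Ndrg1 270 and 443, 1.64-fold (1.60 to 1.69), and Mif 870 and 1352, 1.55-fold (1.53 to 1.58). All 4 lie outside glycolysis, in mitophagy, stress response, protein folding and cytokine signalling. All 7 lower glycolysis enzymes were higher by less than 1.5-fold, and P4ha1 was the lowest member, at 189 CPM in Control and 139 in Arg (-0.43). Ndrg1 and Mif came under 1.5-fold, at 0.52 and 0.50, when each cell had equal weight, and Mif at 0.48 with finer clusters. The macrophage gene Mmp12 had 22.1 CPM in these cells in Control and 56.4 in Arg, and the 8 macrophage markers together 283 and 247; their part in the result was not tested.

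cDC2, which present antigen to CD4 T cells, had the highest median log2 ratio, 0.41, with 25 of 29 members higher in Arg, while the median of all genes was 0.02. Here 4 members (13.8%) were called higher, beside 4.15% of all genes, and none lower, beside 4.65%. Ndrg1 had 179 CPM in Control and 432 in Arg, 2.42-fold (2.19 to 2.68). Bnip3 had 99.1 and 213, 2.15-fold (1.87 to 2.47). Ero1l had 114 and 186, 1.63-fold (1.43 to 1.86), and Slc2a1 101 and 155, 1.53-fold (1.34 to 1.77). The class had 189 cells in Control and 620 in Arg, and 1 Control cell gave 9.24% of the Bnip3 UMIs and 1 gave 11.3% of those of Ero1l. Ndrg1 and Bnip3 stayed past 1.5-fold in all 13 alternative settings, Ero1l in 10 (lowest log2 ratio 0.45) and Slc2a1 in 5 (lowest 0.12). Such counts, here and below, include settings that changed only the filter on low values. Those settings cannot change the ratio of a single gene. P4ha1 was again lowest, at 127 and 105 CPM (-0.26). The 5 markers of Arg1 Mmp12 macrophages were also all higher in these cells, together 812 CPM in Control and 2146 in Arg, as were 7 of 8 macrophage markers, 684 and 1023, beside 1891 and 2096 for the cDC2 markers. In the 105 Control and 123 Arg cells without a UMI of Arg1, Mmp12 or Mmp13, a subset chosen after these values were seen, the median was 0.18, with Bnip3 at 1.23, Ndrg1 at 1.03, Ero1l at 0.54 and Slc2a1 at 0.12 on the log2 scale.

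cDC1, which cross-present antigen to CD8 T cells, had 19 of 25 members higher and a median of 0.17, beside 0.009 for all genes. Bnip3 alone was called higher, at 27.8 CPM in Control and 47.2 in Arg, 1.70-fold (1.28 to 2.26), where 2.97% of all genes were called higher and 3.32% lower. That value was -0.005 on the log2 scale when each cell had equal weight, and 51 of 158 cells in Arg and 54 of 168 in Control had a Bnip3 UMI. P4ha1 was the lowest member (69.5 and 49.5 CPM, -0.45). In pDC, which make type I interferon, the median was -0.10 with 7 of 26 members higher, beside a median of 0.06 for all genes. Hk1 was called higher (10.3 CPM in Control and 23.1 in Arg, from 15 and 45 UMIs), beside 4.49% of all genes. Tpi1 (102 and 57.1 CPM), Aldoc (19.8 and 9.77), Bnip3 (24.6 and 13.9) and Ndrg1 (29.4 and 17.0) were called lower, beside 3.12%. Aldoc, Bnip3 and Ndrg1 rest on 19 to 43 UMIs per library. With doublets kept the pDC median was 0.11, and Bnip3 and Ndrg1 turned to 0.40 and 0.70.

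Monocytes had 23 of 29 members higher in Arg at a median of 0.13, beside 0.04 for all genes. No member was past 1.5-fold in either direction, where 1.60% of all genes were called higher and 1.46% lower. Ndrg1 was the highest, at 287 CPM in Control and 381 in Arg (0.40), and P4ha1 the lowest, at 154 and 123 (-0.31). All 7 lower glycolysis enzymes were higher, together 5046 and 5743 CPM. The class was not made alike in the libraries: cluster M0 (Ly6i, Ly6c2) held 43.5% of its cells in Arg and 18.2% in Control, and M11 held 12.9% and 20.9%. With both libraries set to 1 common mix of clusters the median was 0.15, but it was 0.057 with finer clusters, 0.017 with clusters made on all variable genes and 0.011 with doublets kept.

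The macrophages outside the Arg1 Mmp12 class showed 2 genes apart from the rest. Hif1a had 143 CPM in Control and 288 in Arg, 2.01-fold (1.94 to 2.08), and Hk2 73.5 and 134, 1.82-fold (1.73 to 1.91). The median over 27 members was 0.08 with 16 higher, beside a median of 0.01 for all genes. Of all genes 4.32% were called higher and 1.64% lower, and no member was called lower. Gpi1 was the lowest, at 215 and 184 CPM (-0.22). Cluster M7 (Nos2, C3) held 32.3% of this class in Arg and 3.06% in Control, while M3 (Ch25h, C1qc) and M5 (cycling) held 10.6% and 14.6% in Arg and 23.6% each in Control. At 1 common mix of clusters Hif1a came to 0.45 on the log2 scale, under 1.5-fold, and Hk2 to 0.70. Hif1a was at 429 and 339 CPM in M7, against 152 and 113 in M3 and 197 and 124 in M5 (Arg, then Control).

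Arg1 Mmp12 macrophages, which had the highest summed level of all, had 12 of 30 members higher and 18 lower in Arg, a median of -0.07 beside 0.09 for all genes. All 7 lower glycolysis enzymes were lower, by less than 1.5-fold each. Hk2 was the only member called higher, at 152 CPM in Control and 256 in Arg, 1.68-fold (1.60 to 1.77), where 3.13% of all genes were. P4ha2 was the only one called lower, at 23.8 and 13.5 CPM, where 1.34% of all genes were. At 1 common mix of clusters Hk2 came to 0.81 on the log2 scale and P4ha2 to -0.11; P4ha2 stayed past 1.5-fold in 10 of 14 alternative settings. In this class M1 held 43.1% of the cells in Arg and 17.0% in Control, and M8 held 10.4% and 32.0%.

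Cluster by cluster, the libraries differed in both directions. The median log2 ratio was 0.44 in M7 (27 of 29 members higher), 0.33 in M10 and in M0 (25 of 29 each), 0.26 in M5 (24 of 27) and 0.23 in M12, an interferon-stimulated monocyte-like cluster (24 of 28). It lay between -0.08 and 0.06 in M1, M2, M3, M4, M6, M8 and M9. The lowest of these was M4, at -0.08 beside 0.11 for all genes, with a summed level 0.79-fold that of Control. In M11 the median was -0.37 beside 0.02 for all genes, with 2 of 26 members higher and a summed level of 0.76-fold. Over these clusters the median of all genes lay between -0.03 (M7) and 0.11 (M4). Hk2 was higher in Arg in 13 of 13 clusters, from 0.03 (M11, 91.1 and 89.2 CPM) to 1.18 (M8, 393 CPM in Arg and 171 in Control), with 406 and 250 in M9 and 118 and 59.1 in M4. Ndrg1 was higher in 12 clusters, Bnip3 in 11 and Hif1a in 11, and P4ha1 was lower in 12. These cluster ratios were added after the data had been seen, and the clusters come from the same 2 libraries, so they are not replicates. How many of all genes kept 1 direction over the clusters was not counted.

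**Figure D5:**
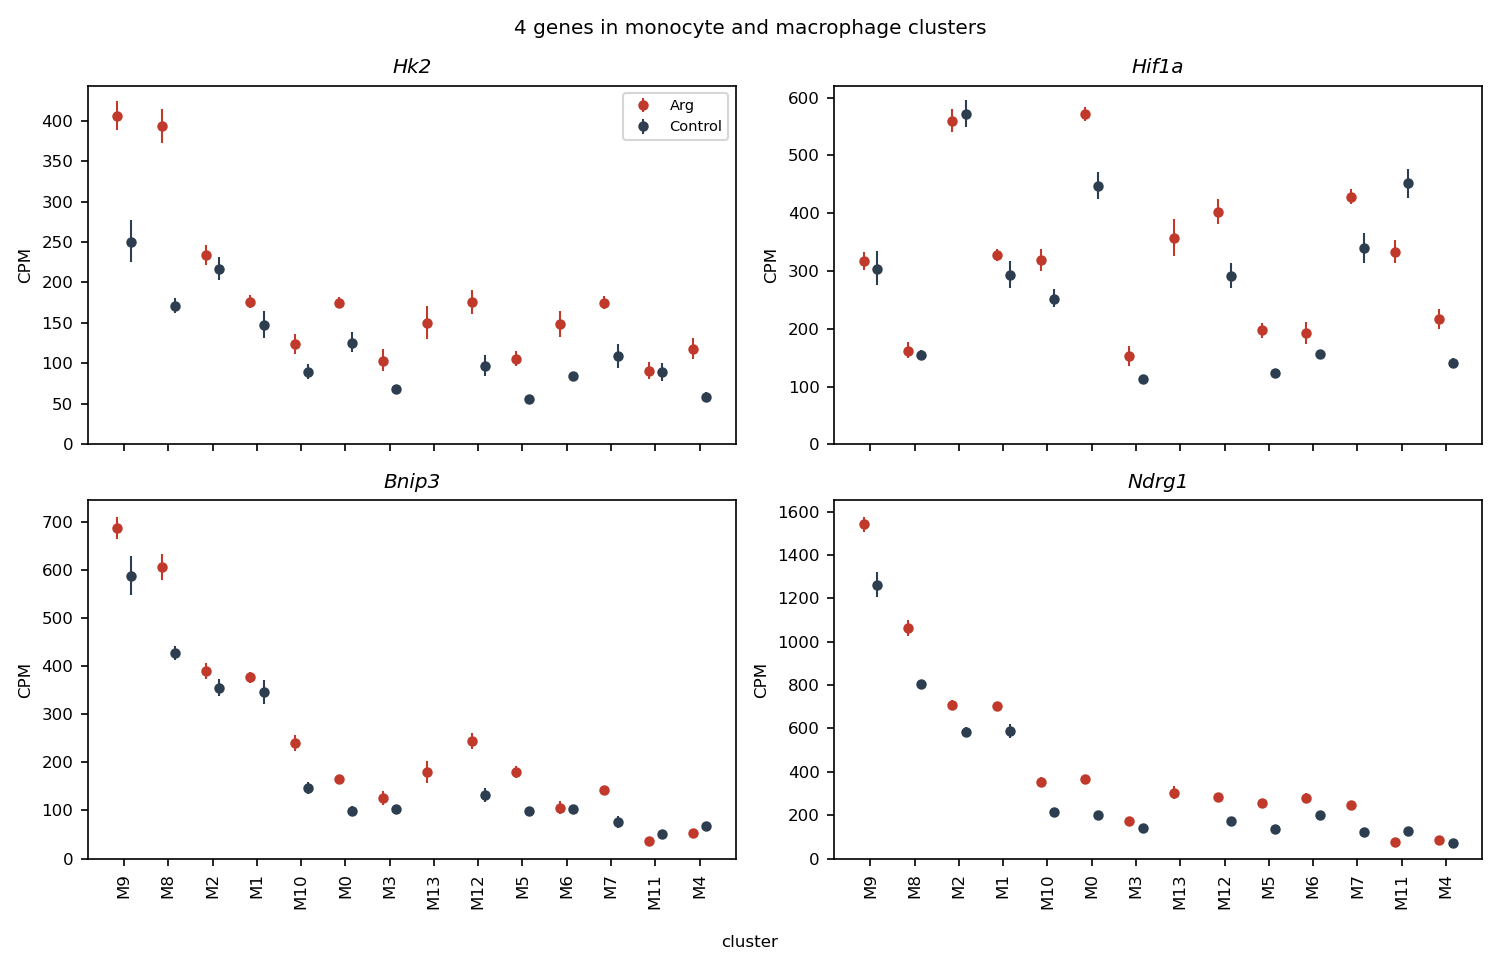
Levels of Hk2, Hif1a, Bnip3 and Ndrg1 in CPM in each monocyte and macrophage cluster, red for the Arg library and dark for the Control library, with 95% Poisson intervals. Hk2 in Arg lies above Control in each of the 13 clusters with both libraries, by the widest margin in M8 (393 against 171 CPM) and with overlapping intervals in M2 and M11.

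CD8 T cells had 9 of 27 members higher in Arg and a median of -0.12, beside -0.01 for all genes. Slc2a3 was the only member called, at 107 CPM in Control and 167 in Arg, 1.56-fold (1.46 to 1.67), where 2.62% of all genes were called higher and 2.85% lower. Mif was the lowest, at 493 and 385 CPM (-0.35). Cluster T2 held 52.1% of this class in Arg and 14.4% in Control, and T1 6.20% and 54.8%, and the 6 cycling markers, all lower in Arg, summed to 891 CPM against 1343. At 1 common mix of clusters the median was -0.07 and Slc2a3 came to 0.50, under 1.5-fold, as it did with equal weight per cell (0.57). Slc2a3 was higher in Arg in each of the 8 compared T and NK clusters, by log2 ratios of 0.006 to 0.76 with a median of 0.18. P4ha1 was lower in all 8, and how many of all genes kept 1 direction was not counted. Slc2a3 had 201 CPM against 134 in T2 and 154 against 89.4 in T5. T1, with 69 cells in Arg, was not compared. Within clusters the median over the members was -0.01 in T2, 0.01 in T5 and -0.25 in T4 (Gzmk, Ccl5), where 4 of 27 members were higher.

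NK cells had 7 of 27 members higher and a median of -0.13, beside 0.02 for all genes. None was called in either direction, beside 0.689% of all genes called higher and 0.777% lower. Their highest member was Slc2a1 (48.4 CPM in Control, 62.9 in Arg, 0.35) and their lowest Tpi1 (234 and 168, -0.47), and all 7 lower glycolysis enzymes were lower. Cluster T0 (Itga2, Gzma) held 64.6% of the class in Arg and 44.7% in Control, and T3 (Gzma, Gzmc) 26.9% and 42.7%. Within T0 18 of 26 members were higher, with a median of 0.13, and within T3 7 of 27, with a median of -0.05; at 1 common mix of clusters the class median was -0.06. Regulatory T cells had 14 of 28 members higher and a median of -0.04, beside -0.02 for all genes. They had 1 call, Hk2, at 28.2 and 46.4 CPM, where 2.67% of all genes were called higher and 3.70% lower. That call held in 9 of 14 alternative settings (lowest log2 ratio 0.36), and 1 cell gave 17.6% of the 51 Control UMIs of Hk2. Their lowest member was Pdk1, at 17.7 CPM in Control (-0.50).

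CD4 T cells, with 124 cells in Control and 237 in Arg, had a median of 0.04, beside -0.01 for all genes, with 17 of 28 members higher. Ero1l (61.7 CPM in Control and 129 in Arg), Hk2 (29.2 and 61.1), Ndrg1 (42.2 and 77.3) and Slc16a1 (14.6 and 29.5) were called higher, 14.3% of the members beside 6.80% of all genes. P4ha1 (191 and 100.5 CPM) was called lower, beside 7.40%. The interval of the Slc16a1 fold, 0.970 to 4.72, includes 1, and its 9 Control UMIs came from 7 cells. Each of these 5 calls was lost in 1 or 2 of 13 alternative settings; with coarser clusters Ndrg1 came to 0.22 and Ero1l to 0.47 on the log2 scale. Mmp12, a gene of macrophages, was at 29.2 and 81.5 CPM in CD4 T cells, at 18.8 and 59.6 in CD8 T cells and at 24.7 and 64.4 in NK cells, higher in Arg in each; its part in these results was not tested.

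Neutrophils had members called in both directions, 2 of 28 (7.14%) higher and 4 (14.3%) lower, where 10.2% of all genes were called higher and 14.2% lower, so that the members' shares were near the background. Hk1 had 42.5 CPM in Control and 128 in Arg, 3.02-fold (2.10 to 4.36), and Hk2 157 and 277, 1.77-fold (1.43 to 2.19). Pfkl (73.2 and 37.2 CPM), Egln1 (68.5 and 38.9), Gpi1 (147 and 87.8) and Slc16a3 (740 and 488) were called lower. Hk1 and Hk2 stayed past 1.5-fold in all 14 alternative settings, Pfkl and Gpi1 in 13, Slc16a3 in 10 and Egln1 in 9. The median was -0.23 with 10 of 28 members higher, beside a median of -0.08 for all genes. The 8 neutrophil markers summed to 56177 CPM in Control and 39271 in Arg, and the 5 markers of Arg1 Mmp12 macrophages to 1202 and 2762, all 5 higher. In the 347 Control and 118 Arg neutrophils, a subset chosen after these values were seen, without a UMI of Arg1, Mmp12 or Mmp13 the median was -0.06 and Hk1 stood at 1.77 on the log2 scale.

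Read across the 12 classes, some members kept 1 direction in most of them. Hk2 was higher in Arg in 11 of the 12 classes and Hk1 in 11, Slc2a1 in 10, while P4ha1 and Gpi1 were lower in 10 each. These were the most one-sided of the members that passed in all 12. Pfkp, Tpi1, Egln1 and Ero1l were each higher in 6 and lower in 6. How many of all genes kept 1 direction as often was not counted. With trimmed-mean (TMM) scaling Hk2 was higher in 11 and Hk1 in 10. The classes share the 2 libraries, so this agreement is not a replicate check. Of the 33 members, 18 had the same highest class in both libraries.

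Of 87 companion genes in 8 lists from the same and neighbouring pathways, those past 1.5-fold were few in most of the larger classes, and their share was near that of all genes in several. In the Tm4sf1 Rhox5 cluster 3 of 59 companions (5.08%) were called higher, beside 1.45% of all genes. These were 3 of the 12 other hypoxia targets that passed: Higd1a (a mitochondrial protein, 309 CPM in Control and 619 in Arg), Ankrd37 (67.1 and 110) and Ddit4 (an inhibitor of mTORC1, 16.0 and 28.4). The muscle enolase Eno3 (100.2 and 62.6) was among 2 of 59 companions (3.39%) called lower, beside 1.94% of all genes. In CD8 T cells Hilpda (a lipid droplet protein; 272 and 153 CPM), Ddit4 (95.5 and 36.3), Myc (74.3 and 37.7) and Eno3 (54.7 and 16.1) were called lower, 4 of 58 companions (6.90%) beside 2.85% of all genes, and Epas1 (HIF-2α; 49.4 and 95.6) higher, where 2.62% were. NK cells had Hilpda (246 and 130), Ddit4 (56.1 and 34.8) and Ankrd37 (23.3 and 10.5) lower. These were 3 of 58 companions (5.17%), all 3 among the 11 other hypoxia targets, where 0.777% of all genes were called lower. In cDC2, whose members were higher, 5 of 11 other hypoxia targets were higher and 6 lower with a median of -0.03, and 2 of 57 companions (3.51%) were called higher and 3 (5.26%) lower, beside 4.15% and 4.65% of all genes.

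In both macrophage classes Hk3, the hexokinase of myeloid cells, and Bhlhe40, a transcriptional repressor induced by hypoxia, were called higher, 2 of 62 companions (3.23%) in Arg1 Mmp12 macrophages and 2 of 57 (3.51%) in the others, beside 3.13% and 4.32% of all genes. In Arg1 Mmp12 macrophages Hk3 had 86.9 CPM in Control and 149 in Arg, Bhlhe40 113 and 190.1, and Ankrd37, called lower, 220.0 and 119. In the other macrophages Hk3 had 94.8 and 172 CPM, Bhlhe40 27.7 and 57.6, and Myc, called lower, 52.2 and 26.3. Ankrd37 was among 2 of 62 companions (3.23%) called lower in Arg1 Mmp12 macrophages, beside 1.34% of all genes. Myc was among 2 of 57 (3.51%) called lower in the other macrophages, beside 1.64%. No companion gene was called in monocytes. In neutrophils Txnip, a brake on glucose uptake (350.2 and 542 CPM), Myc (14.2 and 37.2), Mpc1 (29.9 and 52.4), Rpe (26.0 and 42.2) and Slc2a6 (23.6 and 40.5) were called higher, and Tkt (56.7 and 22.0), Sdha (37.8 and 18.6), Ogdh (34.6 and 20.3) and Idh3b (16.5 and 8.45) lower. These 5 of 50 companions higher (10%) and 4 lower (8%) were no more than the 10.2% and 14.2% of all genes.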

How the data were processed

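Whole-number UMI counts per gene and cell were deposited by the authors as a 10x matrix for each library. Cell Ranger made them, version 7.0.1 per the file headers and 2.2.2 per the submitters' processing notes, which also name GRCm38, with an intron setting not given in the sources used here.

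Cells with at least 500 UMIs, at least 200 genes and at most 10% mitochondrial UMIs were kept, and doublets called by Scrublet in scanpy 1.11.5 (6.37% in Arg, 5.09% in Control) were left out. Cells were clustered by Leiden (leidenalg 0.10.2, resolution 1) on 2000 variable genes and 30 components, without the members and companions. Clusters were named by marker lists, with naming thresholds set after the clusters had been seen. The members and lists were chosen with earlier results of these data known.

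Counts were summed per class and library and compared as log2 ratios of CPM + 5 where the mean was at least 10 CPM. Levels carry exact Poisson intervals and folds exact conditional binomial intervals. Counting UMIs limits the precision: the classes compared held from 592012 UMIs (neutrophils, Arg) upward. The scripts were tested on simulated data. All 33 members are accounted for; named with values are members past 1.5-fold, the extremes of each class and member, companions past 1.5-fold in the macrophage, monocyte, neutrophil, CD8 T and NK classes and the Tm4sf1 Rhox5 cluster, and the 10 genes most alike in profile; 1 companion gene is not reported here. The rule's tumour class was not found, and the Tm4sf1 Rhox5 cluster stood in its place. A second Aldoa feature (35 UMIs against 165595) was left out. Alternatives were tried for the added CPM, scaling (TMM in edgeR 4.0.16), filters, clustering and weights.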

Additional observations from a re-analysis of the deposited data

Results flagged for a closer look

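The same gene lay past 1.5-fold in opposite directions in different classes in 5 cases, on the scale of the log2 ratio of CPM + 5, Arg over Control. With 1 library per diet none of these differences between classes was tested. Bnip3 was at 1.06 in cDC2 and -0.65 in pDC, and Ndrg1 at 1.25 in cDC2 and -0.65 in pDC. With doublets kept, both pDC values were above 0, at 0.40 for Bnip3 and 0.70 for Ndrg1. Ankrd37 was at 0.67 in the Tm4sf1 Rhox5 cluster and -0.87 in NK cells. Ddit4 was at 0.67 in the Tm4sf1 Rhox5 cluster and -1.28 in CD8 T cells. Myc was at 1.14 in neutrophils and -0.89 in CD8 T cells.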

How the results depend on the processing

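No paired analysis was possible because there is 1 library per diet, and no replicate could be left out. Class medians, ranges and call counts over all classes were recomputed under each alternative. Of these, 184 values moved by less than counting error or 1.5 times, 30 moved more and 4 turned their sign. For a class median the limit was the counting error of single members, which is wide: 0.44 in CD4 T cells, 0.36 in pDC and 0.24 in regulatory T cells. Medians there could shift by more than their own size without counting as moved. Of the other values, call counts of single classes and ratios of single genes, 601 were labelled the same, 140 moved and 3 turned their sign. Settings that altered only the filter on low values could not change the ratio of a single gene, so those labels were fixed in advance. TMM scaling gave medians of -0.16 in Arg1 Mmp12 macrophages and 0.45 in the Tm4sf1 Rhox5 cluster. Without the filter on low values the Tm4sf1 Rhox5 median was 0.29 and the regulatory T median 0.0084, above 0. At a filter of 50 CPM 6 pairs were called lower. With equal weight per cell the Tm4sf1 Rhox5 median was 0.29, the macrophage median -0.0020, and Bnip3 in cDC1 -0.0048. Leiden resolution 0.5 gave a CD4 T median of -0.062 and no cDC2 class to compare; resolution 2 gave 0.20 in macrophages and 0.057 in monocytes. With doublets kept the monocyte median was 0.011, the pDC median 0.11, Bnip3 and Ndrg1 in pDC 0.40 and 0.70, and 5 pairs were called lower. Clustering on all variable genes gave 0.017 in monocytes, 1 common mix of clusters 0.17 in macrophages, and leaving out cells with an Arg1, Mmp12 or Mmp13 UMI, an alternative chosen after seeing the data, 0.18 in cDC2. The cause of these shifts was not tested.

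The fold between Arg1 Mmp12 macrophages and pDC was, in Arg, 5.47 with equal weight per cell, 5.38 at resolution 2, 4.01 with doublets kept and 5.74 without a mitochondrial limit; in Control it was 5.63 with equal weight, 5.38 at resolution 0.5, 4.79 with doublets kept, 5.37 at a limit of 5% mitochondrial UMIs and 5.79 without one. The range over monocyte and macrophage clusters was 4.65-fold (Arg) and 3.46-fold (Control) at resolution 0.5, 7.07 and 6.46 at resolution 2, and 6.31 in Arg on all variable genes. Over T and NK clusters it was 2.03 and 2.25 at resolution 0.5, 3.24 in Arg at resolution 2 and 2.68 in Control on all variable genes. Of the 31 called pairs, 9 stayed past 1.5-fold in every setting run, including the settings of the filter that could not move them. Depth limits the neutrophil, pDC and CD4 T values most.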

Other observations

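The citric acid cycle genes, which burn the pyruvate that glycolysis delivers, held few calls between the libraries. None of 16 was past 1.5-fold in 10 of the 12 classes. In those classes 0.689% to 4.49% of all genes were called higher and 0.777% to 4.65% lower, shares at which 16 genes would hold few calls. In CD4 T cells 1 was called higher, where 6.80% of all genes were. This was Fh1, at 8.11 CPM in Control, where the class held only 616233 UMIs, and 26.7 in Arg. In neutrophils 3 of the 13 that passed were called lower, where 14.2% of all genes were. In the Tm4sf1 Rhox5 cluster 23 of 27 glycolysis and hypoxia genes were higher in Arg, and 14 of the 16 cycle genes were lower. The median log2 ratio of the cycle genes was -0.16, beside -0.08 for all genes in that cluster. In cDC2 9 of 16 cycle genes were higher, with a median of 0.04, beside 0.41 for the glycolysis and hypoxia genes and 0.02 for all genes.

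The pentose phosphate pathway, which diverts glucose phosphate to NADPH and ribose, was lower in Arg for all 7 genes that passed in monocytes (median -0.17) and all 6 in CD8 T cells (median -0.22), each by less than 1.5-fold. It went the other way in pDC (5 of 6 higher, median 0.18) and was mixed in cDC1 and CD4 T cells (4 of 6 higher in each). These counts were not tested.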
